A study of Mus musculus with 8 samples.

Results

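Receptors for neuropeptides, hormones and lipid mediators, and the peptide precursors made beside them, were followed in lung group 2 innate lymphoid cells (ILC2s), with splenic CD8 T cells as the other cell type. The 9 genes were Nmur1, Ramp1, Ramp3, Vipr2, Gipr, Cysltr1, Ptgdr2, Calca and Penk, and they were matched by symbol in the deposited count table of each cell type. Of the 19805 symbols found in either table, 8 of the 9 genes were matched in both. Ptgdr2, the gene of the prostaglandin D2 receptor CRTH2, was matched in neither table and was not analysed here. No value in either table was 0 and the lowest count was 1, so genes without reads in 1 library of a table have no row in that table. Of the 8 genes with values, 6 encode receptors or receptor subunits, and Calca and Penk encode peptide precursors.

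ILC2s lack antigen receptors, reside in tissues such as the lung and secrete interleukin-5 and interleukin-13. They carry receptors for signals released by nerves, endocrine cells and mast cells. Neuromedin U and cysteinyl leukotrienes are known to activate them, vasoactive intestinal peptide acts on them through VPAC receptors, and calcitonin gene-related peptide (CGRP) is known to tune their cytokine output. Most of these receptors couple to G proteins and act through cyclic AMP or calcium. The proteins encoded by Ramp1 and Ramp3 are single-pass partners of the receptor encoded by Calcrl. With Ramp2, they belong to a family whose members help set whether that receptor binds CGRP or adrenomedullin.

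All cells were primary cells of wild-type (WT) mice (lung for ILC2s, spleen for CD8 T cells), and every group carried the label untreated. ILC2s and CD8 T cells were kept together for 3 days at 5:1, or each was cultured by itself, before 1000000 cells per group were sorted by flow cytometry and their RNA was sequenced in bulk. The 4 groups, of 2 libraries each, were ILC2s labelled co-cultured, ILC2s labelled alone, CD8 T cells labelled co-cultured and CD8 T cells labelled alone. Nothing states that the libraries of a group stem from different cultures or mice, so p-values reflect only how far these libraries spread, which may be technical. Library totals ran between 48072595 and 67076905 reads. Levels are given as CPM, counts scaled to 1000000 reads per library, and changes as the log2 difference between the libraries labelled co-cultured and those labelled alone in edgeR's quasi-likelihood fit over all genes of a table (libraries scaled by the trimmed mean of M-values, TMM), called at a Benjamini-Hochberg adjusted p under 0.05.

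The markers of both cell types were checked before the genes were compared. The summed level of 14 ILC2 identity genes, among them Gata3, Il1rl1 and Il5, was 9806 and 9574 CPM in ILC2s labelled co-cultured, against 3235 and 3336 CPM in ILC2s labelled alone, and 13 of the 14 were called higher. Genes of several other cell types went the opposite way. Stromal genes (7 of 9 in the table) summed to 114.5 and 119.3 CPM in ILC2s labelled co-cultured, against 6299 and 6863 CPM in ILC2s labelled alone. Of these genes 6 were called lower and 1, Lum, higher. Lum averaged 107.5 CPM in ILC2s labelled co-cultured, most of their stromal sum, against 66.35 CPM in those labelled alone. Macrophage genes (5 of 10 in the table) summed to 17.0 and 21.1 CPM in the co-cultured ILC2 libraries and to 313 and 319 CPM in those labelled alone. CD8 T cell identity genes (12 of 12) summed to 539.4 and 594.7 CPM in ILC2s labelled co-cultured and to 1880.0 and 1789 CPM in ILC2s labelled alone. Cd8a averaged 6.42 CPM in ILC2s labelled co-cultured, 0.675% of its level in CD8 T cells labelled co-cultured, against 253.8 CPM in ILC2s labelled alone, 44.1% of its level in CD8 T cells labelled alone. Endothelial genes (3 of 8 in the table, led by Pecam1) and the CD4 T cell list (4 of 4, led by Ctla4) had the higher sums in co-cultured ILC2 libraries, each carried by that 1 gene while the other 2 and 3 genes were called lower. The sums were 178.9 and 162.5 CPM and 1733 and 1688 CPM in them, against 111.7 and 108.2 CPM and 398.5 and 407.7 CPM in those labelled alone. Both ILC2 libraries labelled alone thus carried genes of other cell types, which moved with every ILC2 comparison, and their part in those comparisons was not tested. In the CD8 T cell libraries, CD8 identity genes summed to 7518 and 7388 CPM when labelled co-cultured and to 5655 and 5858 CPM when labelled alone, while ILC2 identity genes (10 of 14 in the table) summed to 569 and 603 CPM when labelled co-cultured and to 654 and 607 CPM when labelled alone. In bulk RNA, fewer cells of a type and less RNA per cell cannot be told apart.

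**Figure D1:**
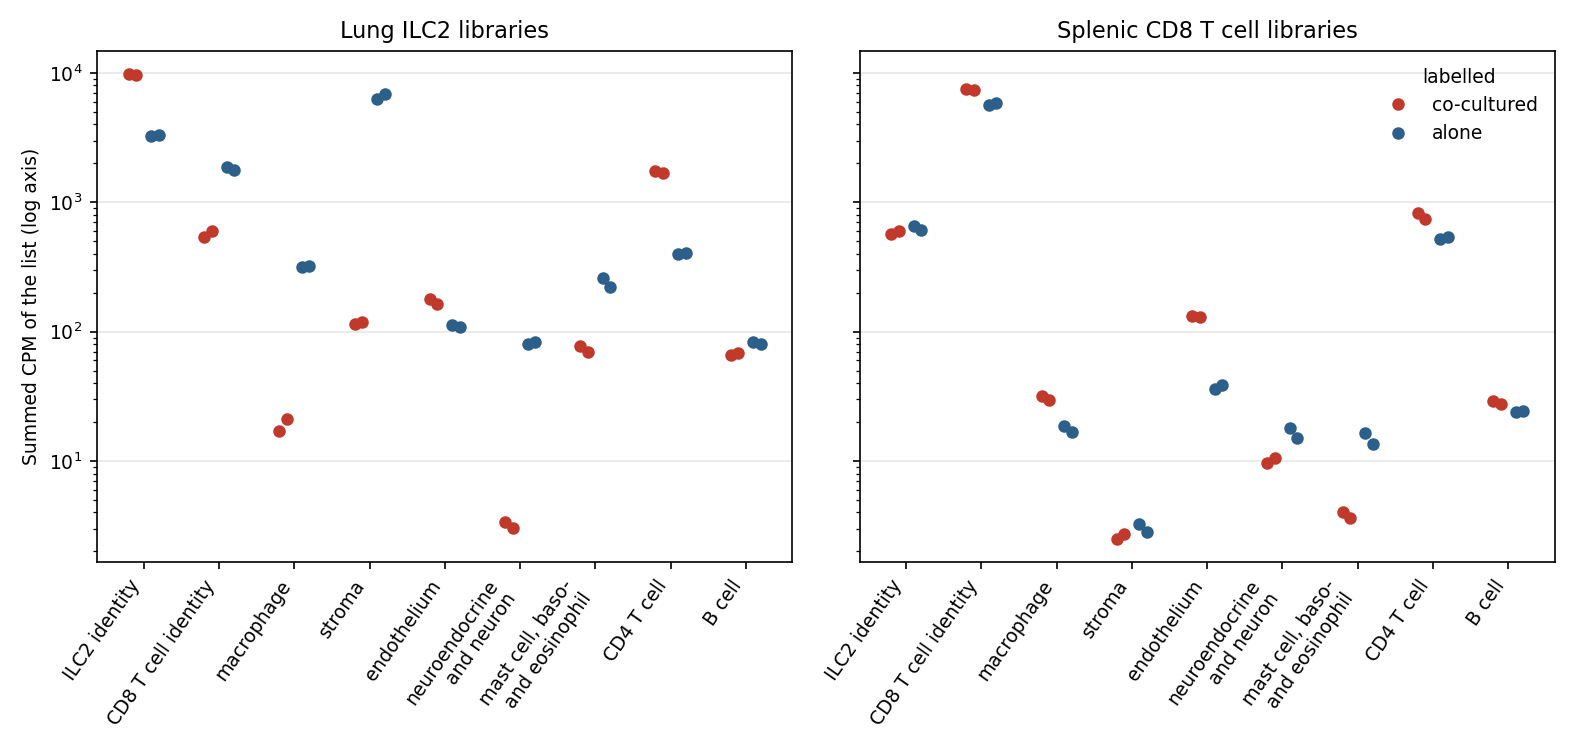
Summed CPM (log axis) of each list of cell type markers in the 8 libraries, ILC2s on the left panel and CD8 T cells on the right, with libraries labelled co-cultured left of those labelled alone within each list. Stromal genes sum to 114.5 and 119.3 CPM in ILC2s labelled co-cultured and to 6299 and 6863 CPM in ILC2s labelled alone, the widest gap of the ILC2 panel.

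Promoter sequences are shown for 4 of the genes: Ramp1 and Ramp3, whose products pair with the same receptor and whose transcripts were called higher in ILC2s (under the scaling used first) and lower in CD8 T cells; Vipr2, the one gene of these 4 that was called higher in both; and Calca, the peptide gene of the CGRP system. Each line gives up to 250 bases directly upstream of the start, 5′ to 3′ on the gene's strand, from RefSeq (GRCm38.p6). The window of Ramp3 ends at 238 bases, where GENCODE M21 places an exon. The windows are chr1:91179572-91179821 (plus strand), chr11:6658283-6658520 (plus strand), chr12:116077476-116077725 (plus strand) and chr7:114636358-114636607 (minus strand). Capitals mark matches, on either strand, to the short core of the cyclic AMP response element (TGACG), to a site known from GATA factors (AGATAA) or to the GC box (GGGCGG).
Ramp1 promoter: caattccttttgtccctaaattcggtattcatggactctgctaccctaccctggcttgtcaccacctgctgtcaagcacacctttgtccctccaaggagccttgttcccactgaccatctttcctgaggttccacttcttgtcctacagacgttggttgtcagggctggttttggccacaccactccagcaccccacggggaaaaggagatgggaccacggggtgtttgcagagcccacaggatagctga
Ramp3 promoter: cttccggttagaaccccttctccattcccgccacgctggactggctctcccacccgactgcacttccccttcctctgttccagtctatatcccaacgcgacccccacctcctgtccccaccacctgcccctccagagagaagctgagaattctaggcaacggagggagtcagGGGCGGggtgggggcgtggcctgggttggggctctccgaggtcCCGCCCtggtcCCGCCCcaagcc
Vipr2 promoter: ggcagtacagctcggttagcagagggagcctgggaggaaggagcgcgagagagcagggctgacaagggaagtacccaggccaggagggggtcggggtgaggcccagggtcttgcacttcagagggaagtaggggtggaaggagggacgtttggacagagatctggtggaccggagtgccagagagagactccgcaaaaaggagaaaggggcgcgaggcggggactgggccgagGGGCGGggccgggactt
Calca promoter: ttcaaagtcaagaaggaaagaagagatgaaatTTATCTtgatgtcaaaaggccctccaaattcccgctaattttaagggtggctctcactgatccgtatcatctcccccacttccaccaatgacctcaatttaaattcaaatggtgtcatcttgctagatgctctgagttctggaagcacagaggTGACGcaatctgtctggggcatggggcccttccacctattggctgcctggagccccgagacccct
The Ramp3 window held 3 GC boxes and that of Vipr2 held 1, a motif found in 33.0% of the 32536 windows of 250 bases. In the Calca window there was 1 TGACG, 65 bases before the start (a motif in 17.9% of all windows), and 1 AGATAA match on the opposite strand, 218 bases before it (in 9.97%). The Ramp1 window held none of the motifs searched, which also included the full response element TGACGTCA (in which TGACG lies), TGANTCA (AP-1), TGTGGT (Runx) and TATAAA (the TATA box), and none of these other motifs was in the windows of Ramp3, Vipr2 or Calca. A match describes the letters of a window, not a site in use.

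In ILC2s, 7 of the 8 genes were called higher and 1, Penk, lower in libraries labelled co-cultured than in those labelled alone, by edgeR's quasi-likelihood test. Calls were common across the table: of the 16739 genes tested 66.3% were called, 31.8% higher and 34.4% lower. The CPM ranges of the groups did not overlap for 7 of the 8 genes, all but Calca: 6 lay higher and 1 lower, where 83.4% of all genes tested did not overlap, 33.8% higher and 49.6% lower. These directions rest on TMM scaling, which assumes that most genes do not change. When the libraries were instead scaled to the median ratio of the 14 ILC2 identity genes, 3 genes were called higher (Ramp1, Vipr2 and Gipr), 4 lower (Nmur1, Calca, Cysltr1 and Penk), and Ramp3 passed in neither direction. That scaling moved the median log2 change of all ILC2 genes to -1.71, against -0.01 under TMM, and the share of calls that were higher to 2.4%, against 48%. A change of scaling shifts the log2 changes of all genes by about the same amount. Values relative to the median of all genes therefore stay nearly the same by construction, for example 1.23 for Nmur1 under each scaling. They cannot tell which scaling is right.

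In CD8 T cells, 2 of the 8 genes were called higher (Vipr2 and Gipr), 5 lower (Ramp1, Ramp3, Cysltr1, Calca and Penk), and Nmur1 did not pass. Over all 15948 genes tested in that table, 60.9% were called, 30.2% higher and 30.7% lower. All 8 genes had CPM ranges that did not overlap between the groups, 3 higher and 5 lower, as did 81.2% of the genes tested, 44.1% higher and 37.1% lower. Scaling to the CD8 identity genes changed no call of these genes, although over the whole table it moved the share of calls that were higher to 35.9%, against 49.5%, and the median log2 change to -0.19, against -0.01.

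**Figure D2:**
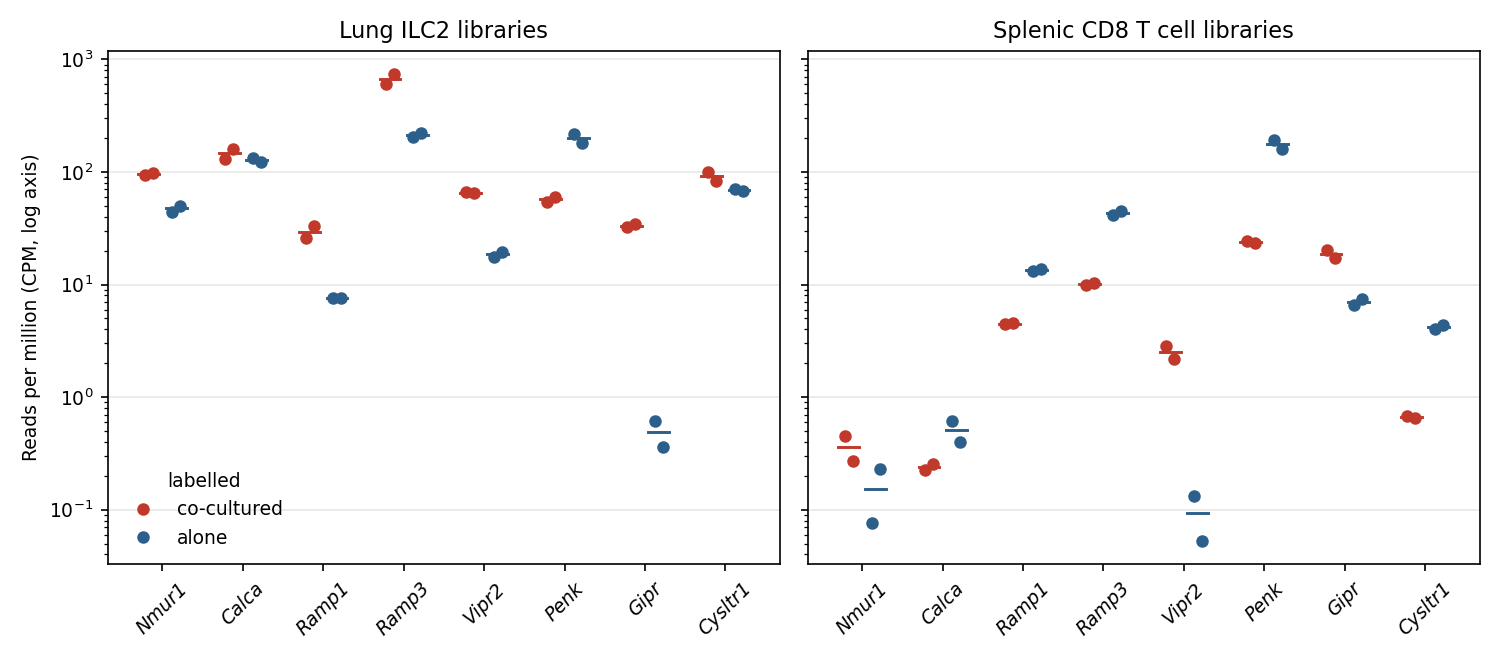
CPM (log axis) of the 8 genes in each library of ILC2s (left panel) and CD8 T cells (right panel), points for libraries and short lines for group means, with co-cultured left of alone. Ramp3 reaches 601 and 740.5 CPM in ILC2s labelled co-cultured, while Nmur1 and Calca stay under 1 CPM in every CD8 T cell library.

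Nmur1, the receptor of neuromedin U (chr1:86386303-86426228, minus strand; all gene positions are of GRCm38 in GENCODE M21), separated the cell types. Its level was 93.4 and 97.1 CPM in ILC2s labelled co-cultured and 44.5 and 50.3 CPM in ILC2s labelled alone. Both co-cultured libraries lay above both others. The log2 change was 1.22 (SE 0.125, edgeR adjusted p = 5.09e-06) and turned to -0.48 (adjusted p = 0.00302) under scaling to ILC2 identity genes. CD8 T cells had 30 and 18 reads (0.453 and 0.268 CPM) when labelled co-cultured, against 4 and 13 reads (0.076 and 0.228 CPM) when labelled alone. The CD8 change of 1.14 (SE 0.547, edgeR adjusted p = 0.0901) did not pass. It passed when the second library labelled co-cultured was left out (1.47, adjusted p = 0.0467), when the second labelled alone was left out (2.15, adjusted p = 0.0297) and when all 8 libraries were fitted together (1.13, adjusted p = 0.037). At these few reads the CD8 level was 0.379% of the ILC2 level among libraries labelled co-cultured. The 10 ILC2 identity genes found in both tables ran between 0.0241% (Il1rl1) and 17.6% (Rora), with a median of 5.34%. Il1rl1, Il5 (0.0452%), Areg (0.189%) and Il9r (0.233%) lay below the Nmur1 share and the others above it. Among libraries labelled alone the Nmur1 share was 0.32% and the median of these identity genes was 9.86%.

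Ramp3 (chr11:6658521-6677475, plus strand), whose product turns the Calcrl receptor toward adrenomedullin, was the most abundant of the 8 genes per length of exon in both ILC2 groups. Libraries of ILC2s labelled co-cultured held 601 and 740.5 CPM, and those labelled alone held 205 and 222 CPM. The groups were far apart, and the change was 1.86 on the log2 scale (SE 0.126, edgeR adjusted p = 1.63e-07), which was 0.17 (adjusted p = 0.233) under scaling to ILC2 identity genes. CD8 T cells carried much less and went the other way, with 9.94 and 10.3 CPM when labelled co-cultured and 41.1 and 45.3 CPM when labelled alone. Ramp3 fell by 2.17 on the log2 scale in CD8 T cells (SE 0.1, edgeR adjusted p = 4.13e-09). Its exons share 101 bases with Gm11978 on the opposite strand, and reads there cannot be assigned because the strand setting of the counting is not given in the sources used here.

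Ramp1 (chr1:91179822-91225196, plus strand), whose product makes the Calcrl receptor bind CGRP, changed in the same directions as Ramp3. It stood at 25.7 and 32.9 CPM in ILC2s labelled co-cultured and at 7.59 and 7.56 CPM in ILC2s labelled alone, with no overlap. The ILC2 change was 2.16 (SE 0.154, edgeR adjusted p = 2.53e-07), and 0.46 (adjusted p = 0.0262) under scaling to ILC2 identity genes. Ramp1 in CD8 T cells had 4.46 and 4.52 CPM when labelled co-cultured, below the 13.1 and 13.8 CPM of libraries labelled alone. The change there was -1.67 (SE 0.134, edgeR adjusted p = 3.26e-07). Ordered by level, ILC2s labelled co-cultured came first, then CD8 T cells labelled alone, ILC2s labelled alone and CD8 T cells labelled co-cultured, and no neighbours in that order overlapped.

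Calcrl, the gene of the receptor that the products of Ramp1 and Ramp3 partner, was measured beside them. It had 54.7 and 41.9 CPM in ILC2s labelled co-cultured and 34.6 and 35.2 CPM in ILC2s labelled alone (log2 change 0.69, SE 0.157, edgeR adjusted p = 0.00226), and this turned to a lower call under scaling to ILC2 identity genes. CD8 T cells held 16.4 and 13.2 CPM of it when labelled co-cultured and 32.6 and 30.0 CPM when labelled alone (log2 change -1.16, SE 0.113, edgeR adjusted p = 1.85e-06). Ramp1, Ramp3 and Calcrl were thus each called higher in ILC2s under TMM and lower in CD8 T cells. Ramp2, of the same family, did not share this pattern. It had 0.206 and 0.0624 CPM in ILC2s labelled co-cultured and 3.67 and 3.92 CPM in ILC2s labelled alone. It was called lower there (log2 change -4.58, SE 0.454, edgeR adjusted p = 3.85e-06) and had no row for CD8 T cells.

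Vipr2 (chr12:116077726-116146261, plus strand), which encodes the vasoactive intestinal peptide receptor VPAC2, was called higher in both cell types. ILC2s labelled co-cultured had 66.1 and 65.0 CPM, against 17.6 and 19.5 CPM in ILC2s labelled alone (log2 change 2.04, SE 0.133, edgeR adjusted p = 1.24e-07), and the change was 0.34 (adjusted p = 0.032) under scaling to ILC2 identity genes. CD8 T cells labelled co-cultured had 187 and 146 reads (2.83 and 2.18 CPM), while those labelled alone had 7 and 3 reads (0.133 and 0.0526 CPM). The CD8 groups did not overlap, and the change was 4.67 on the log2 scale (SE 0.404, edgeR adjusted p = 6.27e-07), and leaving out the first or the second library labelled alone gave 5.43 or 4.15. The level in CD8 T cells labelled co-cultured was 3.82% of that in ILC2s labelled co-cultured. Of the 10 ILC2 identity genes (median 5.34%), Il1rl1 (0.0241%), Il5 (0.0452%), Areg (0.189%) and Il9r (0.233%) lay below this share. Cd200r1 (4.35%), Ccr8 (6.34%), Gata3 (6.41%), Id2 (11.6%), Icos (14.4%) and Rora (17.6%) lay above it. Among libraries labelled alone the shares of these 10 genes ran between 0.179% (Il1rl1) and 74.6% (Ccr8), with a median of 9.86%, and that of Vipr2 was 0.501%. Such genes thus also had reads in CD8 T cells labelled alone. Between the CD8 groups, 3 of the 10 were called higher and 6 lower in libraries labelled co-cultured. Whether ILC2 RNA had a part in the CD8 values was not tested. Vipr1, the gene of the related receptor VPAC1, averaged 0.394 ± 0.207 CPM in ILC2s labelled co-cultured and 0.34 ± 0.132 CPM in ILC2s labelled alone (SD, n = 2 each). In CD8 T cells Vipr1 averaged 2.64 ± 0.779 CPM when labelled co-cultured and 1.48 ± 0.161 CPM when labelled alone (SD, n = 2 each). It was called higher there (log2 change 0.75, SE 0.254, edgeR adjusted p = 0.0219).

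Gipr (chr7:19156061-19166127, minus strand), the receptor of the gut hormone GIP (glucose-dependent insulinotropic polypeptide), had the largest log2 change of the 8 genes in ILC2s. There were 1582 and 1642 reads (32.6 and 34.2 CPM) in ILC2s labelled co-cultured, against 37 and 20 reads (0.609 and 0.361 CPM) in ILC2s labelled alone. The means differed by 68.9-fold and the groups were far apart (log2 change 6.30, SE 0.221, edgeR adjusted p = 7.36e-10; 4.60 under scaling to ILC2 identity genes). CD8 T cells labelled co-cultured had 20.1 and 17.1 CPM, above the 6.55 and 7.50 CPM of those labelled alone (log2 change 1.32, SE 0.133, edgeR adjusted p = 2.35e-06). Among libraries labelled alone the ILC2 level was thus 0.069 times the CD8 level, while among those labelled co-cultured it was 1.8 times. Cd8a, in contrast, stood in ILC2s labelled alone at 44.1% of its CD8 level.

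Cysltr1 (chrX:106574346-106603679, minus strand), a receptor of cysteinyl leukotrienes, had a ratio of means of 1.34 between the ILC2 groups. It had 99.96 and 84.0 CPM in ILC2s labelled co-cultured and 70.2 and 67.4 CPM in ILC2s labelled alone, without overlap. The log2 change was 0.64 (SE 0.137, edgeR adjusted p = 0.00152) and turned to -1.07 (adjusted p = 5.25e-06) under scaling to ILC2 identity genes. CD8 T cells had 45 and 44 reads (0.680 and 0.656 CPM) when labelled co-cultured and 212 and 249 reads (4.03 and 4.36 CPM) when labelled alone. In them Cysltr1 fell by 2.73 on the log2 scale (SE 0.226, edgeR adjusted p = 4.3e-07). Genes of mast cells, basophils and eosinophils, which also use this receptor, were measured beside it in CD8 T cells, where 4 of 11 were in the table, 3 called lower and 1 higher. They summed to 4.04 and 3.64 CPM when labelled co-cultured and to 16.5 and 13.6 CPM when labelled alone. In ILC2s 9 of the 11 were in the table and 7 were called lower, with sums of 77.3 and 69.2 CPM when labelled co-cultured and 259.6 and 223.2 CPM when labelled alone. Their part in the Cysltr1 values was not tested. Cysltr2, the second leukotriene receptor gene, was called higher in ILC2s under TMM but not under identity scaling (-0.25, adjusted p = 0.0806; 105.8 and 102.5 CPM labelled co-cultured, 40.5 and 48.2 CPM labelled alone) and in CD8 T cells (38.1 and 36.1 CPM labelled co-cultured, 12.4 and 13.5 CPM labelled alone).

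Calca (chr7:114631478-114636357, minus strand), which encodes calcitonin and, by alternative splicing, the alpha form of CGRP, was the second gene per length of exon in ILC2s labelled co-cultured and lay under 1 CPM in every CD8 T cell library. Counts per gene do not tell its products apart. ILC2s labelled co-cultured had 131.6 and 160.4 CPM, and ILC2s labelled alone had 132.0 and 122.1 CPM. These ranges overlapped, and the ratio of means was 1.15. The edgeR change of 0.41 (SE 0.123, adjusted p = 0.0114) includes TMM factors of 0.902 and 0.956 for the libraries labelled co-cultured and of 1.084 and 1.07 for those labelled alone. It no longer passed without the second library labelled co-cultured (0.30, adjusted p = 0.0602) or the second labelled alone (0.36, adjusted p = 0.0708), and was -1.29 (adjusted p = 1.36e-06) under scaling to ILC2 identity genes. Calca in CD8 T cells had 15 and 17 reads when labelled co-cultured (0.227 and 0.253 CPM) and 32 and 23 reads when labelled alone (0.608 and 0.403 CPM). The CD8 change of -1.14 (SE 0.417, edgeR adjusted p = 0.0306) did not pass without the first or the second library labelled co-cultured (-1.06 and -1.22), without the first labelled alone (-0.83, adjusted p = 0.273) or with DESeq2 (-1.13, adjusted p = 0.158).

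Calcb, the gene of the beta form of CGRP, is a close relative of Calca, so reads may have been split between them. It had 0.681 and 0.562 CPM in ILC2s labelled co-cultured against 13.3 and 16.7 CPM in ILC2s labelled alone (log2 change -4.38, SE 0.238, edgeR adjusted p = 2.85e-08). The order in CD8 T cells was the opposite, with 21.3 and 20.2 CPM when labelled co-cultured against 5.54 and 6.67 CPM when labelled alone (log2 change 1.68, SE 0.131, edgeR adjusted p = 2.52e-07). Calca therefore led in every ILC2 library and Calcb in every CD8 T cell library, in CPM.

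Penk (chr4:4133531-4138819, minus strand), the precursor gene of the opioid enkephalins, was the one gene called lower in both cell types. It had 54.3 and 60.4 CPM in ILC2s labelled co-cultured against 219 and 182 CPM in ILC2s labelled alone. In ILC2s Penk fell by 1.59 on the log2 scale (SE 0.13, edgeR adjusted p = 7.5e-07), and by 3.30 under scaling to ILC2 identity genes. CD8 T cells labelled co-cultured had 24.3 and 23.2 CPM and those labelled alone 192 and 159 CPM, a fall of 2.97 on the log2 scale (log2 change -2.97, SE 0.094, edgeR adjusted p = 2.42e-10). ILC2s and CD8 T cells labelled alone overlapped, with means of 200.7 and 175.9 CPM. Its exons share 233 bases with A830012C17Rik on the opposite strand. Of neuroendocrine and neuronal genes, 4 of 10 were in the ILC2 table (Chga was not), and 3 of them were called lower. They summed to 3.38 and 3.02 CPM in ILC2s labelled co-cultured and to 80.3 and 83.4 CPM in ILC2s labelled alone, and their part in the fall of Penk was not tested.

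Set across the 4 groups, Nmur1 and Vipr2 were higher in both ILC2 groups than in both CD8 groups and had their lowest level in CD8 T cells labelled alone. Ramp3, Cysltr1 and Calca were also higher in both ILC2 groups but had their lowest level in CD8 T cells labelled co-cultured. Gipr was highest in ILC2s labelled co-cultured, then in CD8 T cells labelled co-cultured and alone, and lowest in ILC2s labelled alone. Neighbouring groups overlapped only for Calca between the ILC2 groups and for Penk between the cell types labelled alone.

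Per kilobase of exon, which allows levels to be set between genes, the order in ILC2s labelled co-cultured was Ramp3 (486 ± 71.4 CPM per kb), Calca (86.7 ± 12.1), Nmur1 (56.2 ± 1.56), Penk (35.1 ± 2.63), Cysltr1 (17.9 ± 2.2), Vipr2 (14.7 ± 0.177), Ramp1 (9.69 ± 1.69) and Gipr (9.59 ± 0.308; SD, n = 2 each). Ramp1 and Gipr lay within their spread. In ILC2s labelled alone Ramp3 (155 ± 8.74 CPM per kb) and Penk (123 ± 16.1) were first, and Gipr was last at 0.139 ± 0.0504. CD8 T cells had another order. Penk led there, at 14.5 ± 0.445 CPM per kb when labelled co-cultured and 108 ± 14.3 when labelled alone, followed by Ramp3 at 7.34 ± 0.191 and 31.3 ± 2.16 CPM per kb.

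**Figure D3:**
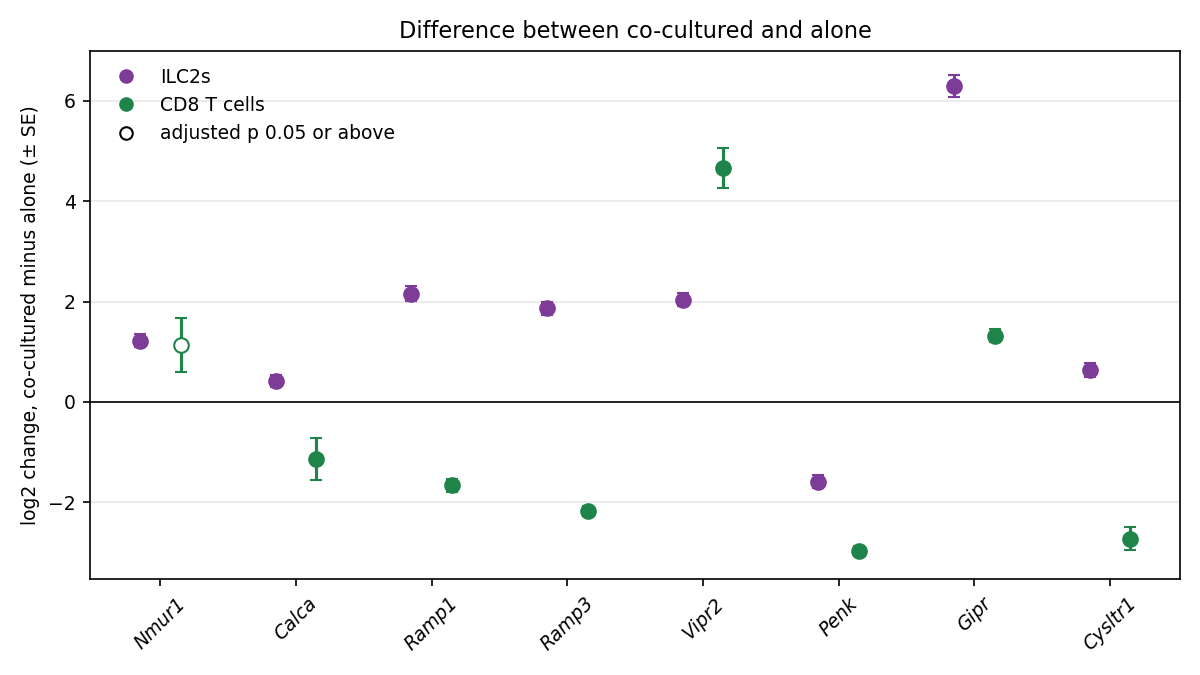
Log2 change of each gene between libraries labelled co-cultured and alone (edgeR, TMM scaling, bars ± SE) in ILC2s and CD8 T cells, open points where the adjusted p was 0.05 or above. Ramp1, Ramp3, Calca and Cysltr1 lie above 0 in ILC2s and below 0 in CD8 T cells, and of these Calca and Cysltr1 turn below 0 in ILC2s when scaled to ILC2 identity genes.

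The interaction of culture and cell type was fitted to the 8 libraries together, on 15532 genes that both tables hold and that passed the filter on low counts. It treated the libraries as independent, although ILC2s and CD8 T cells labelled co-cultured had been kept together. The difference of changes, ILC2s minus CD8 T cells, was called higher for 6 of the 8 genes and lower for 1, where 53.6% of all genes were called, 21.0% higher and 32.6% lower. The median over all genes was -0.12. Among the 8 genes the difference was largest for Gipr, at 4.82 (SE 0.259, edgeR adjusted p = 3.16e-10). Ramp3 and Ramp1 followed, at 3.88 (SE 0.155) and 3.67 (SE 0.2), and Cysltr1 at 3.21 (SE 0.214). Vipr2 was the gene called lower, at -2.79 (SE 0.398, edgeR adjusted p = 2.34e-05), since its log2 change was larger in CD8 T cells. For Nmur1 the difference was -0.07 (SE 0.411, edgeR adjusted p = 0.902), at 4 to 30 reads per CD8 library. With each cell type scaled to its own identity genes, an alternative chosen after seeing the data, Ramp1, Ramp3, Gipr and Cysltr1 kept a higher and Vipr2 a lower difference, while Calca (1.39 under TMM) went to -0.04 (adjusted p = 0.951), Penk (1.21 under TMM) to -0.21 (adjusted p = 0.29), and Nmur1 was called lower (-1.50, adjusted p = 0.00706).

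**Figure D4:**
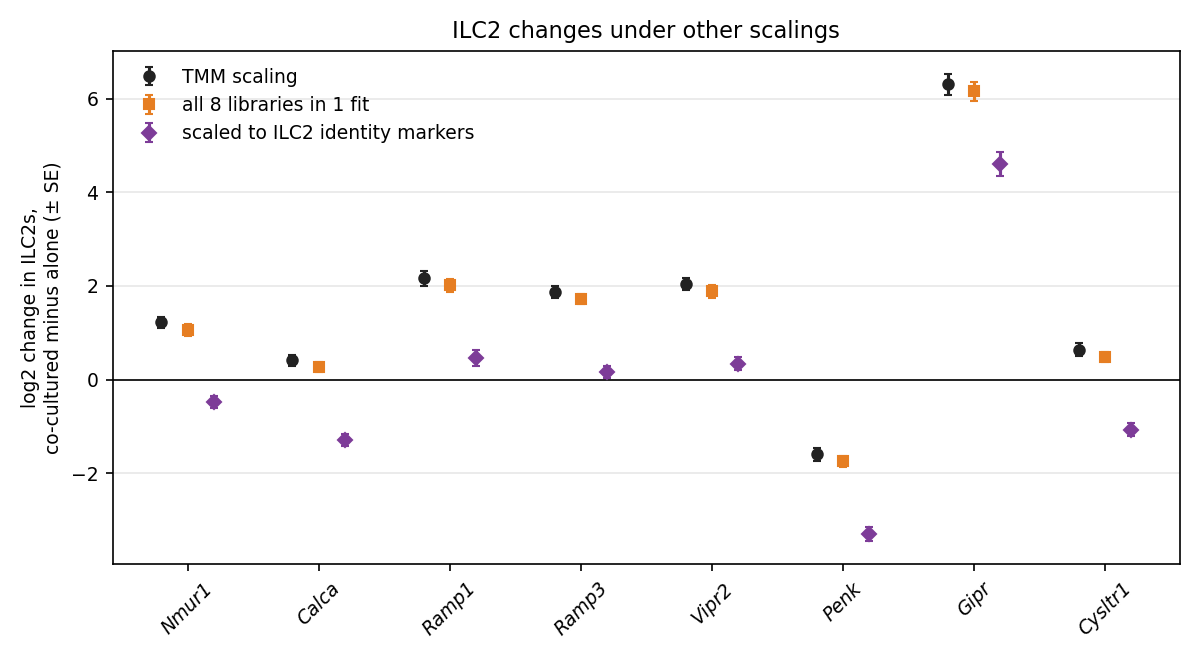
Log2 change in ILC2s, libraries labelled co-cultured against alone (± SE), under TMM scaling, in a fit of all 8 libraries and under scaling to ILC2 identity genes. Identity scaling lowers every point, turns Nmur1 to -0.48, Calca to -1.29 and Cysltr1 to -1.07, and leaves Gipr at 4.60.

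For the ligands and partner receptors of these genes, the list held 29 genes, of which 11 were tested in ILC2s and 9 in CD8 T cells. Nmu, Nms, Vip, Gip, Oprd1 and Oprk1, genes of ligands and opioid receptors, had no row in either table. In ILC2s 3 were called higher, 3 lower and 5 in neither direction, where 31.8% of all genes were higher and 34.4% lower. Their median log2 change was 0.12, against -0.01 over all genes, and under scaling to ILC2 identity genes 7 were lower. Adm, the gene of adrenomedullin, was called lower, with 39.0 and 43.0 CPM in ILC2s labelled co-cultured against 76.6 and 87.1 CPM in ILC2s labelled alone. In CD8 T cells 4 were called higher and 3 lower, 2 passed in neither direction, and the median was -0.29 (30.2% of all genes were higher and 30.7% lower).

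Other mediator receptors had more higher than lower calls in both cell types under TMM. In ILC2s 17 of 33 were called higher and 7 lower (median 0.48; all genes 31.8% higher, 34.4% lower), but 1 higher and 29 lower under scaling to ILC2 identity genes. The glucocorticoid receptor gene Nr3c1 was the one that stayed higher, with 884 and 803 CPM in ILC2s labelled co-cultured against 208 and 182 CPM in ILC2s labelled alone (log2 change 2.33, SE 0.13, edgeR adjusted p = 3.47e-08; 0.62 under identity scaling). Ptger3, a prostaglandin E2 receptor gene, fell by 3.28 on the log2 scale and Htr2a, a serotonin receptor gene, by 3.92. Of the 29 tested in CD8 T cells, 12 were called higher, 5 lower and 12 did not pass (median 0.10; all genes 30.2% higher, 30.7% lower). Among them the prostaglandin E2 receptor genes Ptger4 and Ptger2 fell by 1.62 and 1.37, and the sphingosine 1-phosphate receptor gene S1pr1 rose by 1.18 on the log2 scale.

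Genes that process peptide precursors split in ILC2s, with 4 of 11 higher and 5 lower (all genes 31.8% and 34.4%; median -0.23; 1 higher and 9 lower under identity scaling). Pcsk1, a convertase that cuts prohormones such as proenkephalin, had 457.5 and 426.9 CPM in ILC2s labelled co-cultured and 173.4 and 179.9 CPM in ILC2s labelled alone (log2 change 1.54 under TMM, -0.16 and not called under identity scaling). Pcsk5 fell by 7.72 and Cpe, a carboxypeptidase that trims the cut peptides, by 3.68 on the log2 scale. Of 9 tested in CD8 T cells, 5 were called higher and 4 did not pass (median 0.51; all genes 30.2% higher), and Dpp4, a peptidase that inactivates GIP, rose by 1.11.

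In lipid mediator synthesis, 3 of 17 genes were called higher and 10 lower in ILC2s (all genes 31.8% and 34.4%; median -0.94; under identity scaling 15 were lower). Ptgs2, the inducible cyclooxygenase gene, averaged 1.32 ± 0.183 CPM in ILC2s labelled co-cultured against 995 ± 9.95 CPM in ILC2s labelled alone (SD, n = 2 each; log2 change -9.35), and Pla2g4a, the phospholipase gene that frees arachidonic acid, fell by 5.95. The stromal and macrophage sums given above moved the same way, and their part was not tested. Alox5, the gene of the enzyme that starts leukotriene synthesis, had 639 and 629 CPM in ILC2s labelled co-cultured against 263 and 242 CPM in ILC2s labelled alone (log2 change 1.54 under TMM, -0.16 and not called under identity scaling). In CD8 T cells Alox5 averaged 0.158 ± 0.0121 CPM when labelled co-cultured against 11.6 ± 1.09 CPM when labelled alone (SD, n = 2 each). The log2 change was -6.26 (SE 0.23, edgeR adjusted p = 6.95e-10). The mast cell, basophil and eosinophil sums of CD8 T cells given above were also lower when labelled co-cultured. Macrophage genes there summed to 31.65 and 29.62 CPM when labelled co-cultured and to 18.49 and 16.61 CPM when labelled alone. The part of such cells in the Alox5 values was not tested. Of the 14 genes of the list tested in CD8 T cells, 4 were called higher and 6 lower (all genes 30.2% and 30.7%; median -0.06).

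Genes of G protein and cyclic AMP signalling were called higher under TMM for 25 of 39 in ILC2s with 3 lower (all genes 31.8% and 34.4%; median 0.68) and for 19 of 37 in CD8 T cells with 6 lower (all genes 30.2% and 30.7%; median 0.30), but 33 were lower in ILC2s under scaling to ILC2 identity genes. Pde4b, a phosphodiesterase gene whose product breaks down cyclic AMP, rose by 1.85 on the log2 scale in CD8 T cells (309 and 327 CPM labelled co-cultured, 76.5 and 90.0 CPM labelled alone). In ILC2s the same gene changed by 1.96 under TMM (1422 and 1322 CPM labelled co-cultured, 427.8 and 391.7 CPM labelled alone). Rgs16, whose product shortens G protein signals, had 5.45 and 7.20 CPM in ILC2s labelled co-cultured against 216 and 213 CPM in ILC2s labelled alone (log2 change -4.87, SE 0.155, edgeR adjusted p = 3.52e-10). Rgs1 and Rgs2 in CD8 T cells fell by 1.01 and 0.77.

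**Figure D5:**
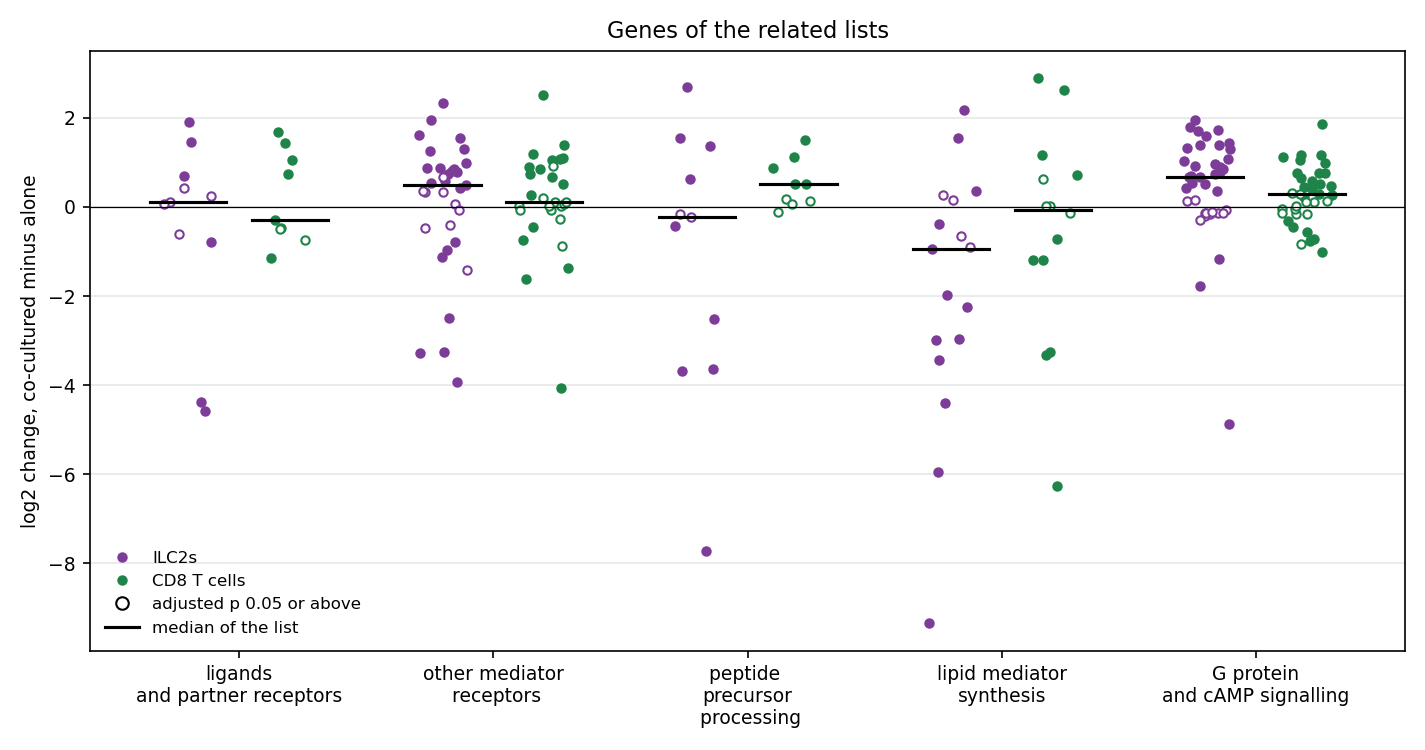
Log2 change between libraries labelled co-cultured and alone (TMM scaling) for every tested gene of the 5 related lists, ILC2s left of CD8 T cells in each list, open points where the adjusted p was 0.05 or above and bars for list medians. The median of the G protein and cyclic AMP list is 0.68 in ILC2s and 0.30 in CD8 T cells, and in ILC2s 33 of its 39 genes are called lower when scaled to ILC2 identity genes.

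For each of the 8 genes, the 3 genes with the most similar pattern were taken as those at the smallest Euclidean distance in log2(CPM + 0.1), centred over the 8 libraries, among 11565 genes in both tables. The closest match of all was Ccr4, a chemokine receptor gene, to Ramp1 (distance 0.32), with means of 46.2 CPM in ILC2s labelled co-cultured, 13.1 CPM in ILC2s labelled alone, 7.32 CPM in co-cultured CD8 T cells and 23.8 CPM in those labelled alone. Cysltr1 lay nearest to Slc17a6 (0.56), Ramp3 to Ebi3 (0.62), Penk to Atf3 (0.62) and Nmur1 to Pcsk1 (0.83). Calca lay nearest to C2 (1.14), Vipr2 to Ecm1 (1.44) and Gipr to Fam183b (2.04). The ILC2 identity gene Areg was the second match of both Nmur1 (1.54) and Calca (1.30).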

How the data were processed

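For each cell type the authors deposited 1 table of raw counts by gene symbol, from SMART-Seq v4 libraries of Trizol RNA per the labels' protocols. Tools in the submitters' processing notes were HISAT2 2.1.0, StringTie 2.1.3b, SAMtools 1.9 and Trimmomatic 0.38, with the build mm10. Their roles, the annotation and the strand setting were not given in the sources used here. The tables held 18389 (ILC2s) and 17642 (CD8 T cells) symbols, 88.6% of each matched in GENCODE M21, from which positions and exon lengths came. Libraries of a group differed beyond counting noise (mean chi-square of a gene 13.2 to 27.3), so none was treated as a repeat deposit of another and each was counted once. This does not show that they are biological replicates.

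Counts went into edgeR 4.0.16 (R 4.3.3; TMM, filterByExpr, quasi-likelihood F test, Benjamini-Hochberg over all genes tested). Residual degrees of freedom were 2 per cell type and 4 for the interaction, with prior degrees of freedom of 9.2 (ILC2s), 10.4 (CD8 T cells) and 11.5. CPM is the count scaled to 1000000 reads per library. The tables were made separately, so levels set across them assume equal counting. The genes and lists were chosen with earlier results of these data known. List genes named are those past the test and a mean log2 CPM no lower than 1, per list the 2 largest rises and 2 largest falls, beside marker genes. Vipr1 and Ramp2 were named after their values were seen. Alternatives were RLE factors, DESeq2 1.42.0, limma-voom (limma 3.58.1), no or a stricter filter, a replicate block, all 8 libraries, scaling to identity markers (median log ratio) and leaving out each library. On simulated counts the ILC2 fit recovered 69.4% of genes changed by 1 log2 unit and the CD8 T cell fit 82.7%. The simulation changed 200 genes, as many up as down, and left all others unchanged. It thus met the assumption of TMM by design and cannot judge the scaling of the real libraries.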

Additional observations from a re-analysis of the deposited data

Results flagged for a closer look

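The change between libraries labelled co-cultured and alone differed between ILC2s and CD8 T cells for 7 of the 8 genes, by the interaction test in edgeR over all 8 libraries, in which 53.6% of all genes tested were called. The values are ILC2 change minus CD8 T cell change on the log2 scale. Ramp1 (3.67), Ramp3 (3.88) and Cysltr1 (3.21) were called higher in ILC2s and lower in CD8 T cells under TMM scaling, but under scaling to ILC2 identity genes Cysltr1 turned lower in ILC2s and Ramp3 was not called there (0.17, adjusted p = 0.233). Gipr (4.82) was called higher in both cell types, with the larger change in ILC2s. Vipr2 (-2.79) was called higher in both, with the larger change in CD8 T cells, where the libraries labelled alone held 7 and 3 reads. Calca (1.39) and Penk (1.21) differed under TMM but not with each cell type scaled to its identity genes, at -0.04 and -0.21.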

How the results depend on the processing

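Across the alternatives, 294 of the single-gene values for the 8 genes in the 3 comparisons kept their side of the threshold and, where called, their direction, 7 lost their call, 4 gained one and 5 reversed. The 5 reversals all came from scaling to identity genes: in ILC2s Nmur1 -0.48, Calca -1.29 and Cysltr1 -1.07, and in the difference between cell types Calca -0.04 and Penk -0.21. In ILC2s that scaling gave 3 of the 8 genes higher and 4 lower, 2 genes of the related lists higher and 93 lower, and over all genes 338 higher and 13889 lower. In the difference between cell types, the same scaling per cell type gave 2 of the 8 genes lower, and 321 genes higher and 12136 lower over the table (2.6% of calls higher, against 39.2%). Genes of the related lists called higher under TMM in ILC2s became lower in 36 cases, uncalled in 14 and stayed higher in 2. In the G protein and cyclic AMP list, 11 genes were lower in CD8 T cells under identity scaling, against 6, and 7 in ILC2s with all 8 libraries, against 3. Identity scaling sets the median ratio of the marker genes to 1 by construction, and what sets that ratio in these libraries was not tested. The uncalled difference between cell types for Nmur1 (-0.07) changed sign under some alternatives, and ran between -1.1 and 0.48 when a library was left out. RLE factors moved the median difference between cell types to 0.00, against -0.12, and fitting all 8 libraries moved the ILC2 median to -0.12, against -0.01.

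Leaving out each library in turn gave 6 to 7 of the 8 genes higher and 1 lower in ILC2s, 2 to 3 higher and 4 to 5 lower in CD8 T cells, and 6 higher and 1 lower in the difference. Replicate numbers are shared between groups, but nothing says that they pair libraries. Deviations of same-numbered libraries correlated at 0.09 in ILC2s and 0.01 in CD8 T cells across genes. ILC2s and CD8 T cells labelled co-cultured were kept together, so their libraries may stem from the same cultures. Correlations within a cell type cannot address that, and the main interaction test treated all 8 libraries as independent. With a replicate block, 7 of the 8 genes were higher and 1 lower in ILC2s and 2 higher and 5 lower in CD8 T cells, as without it. Nmur1, Calca and Vipr2 in CD8 T cells labelled alone rest on 3 to 32 reads per library, which limits their changes.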
